A study of Mus musculus with 2 samples.

Results

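*Dscam*, *Hapln1*, *Ank3*, *Frmd5*, *Nav2*, *Cep112* and *Hormad2* are 7 of the 32285 genes counted in single T cells of 2 mice. They were selected on these same counts, as genes read out in Treg-like cells of the DKO-severe mouse that are better known from other tissues. Levels and shares by genotype and by *Foxp3*, and the co-detection of the 7 genes, are therefore descriptions and have no test. TCRβ+ cells, which carry the αβ T cell receptor, were taken at 14 weeks of age from spleen pooled with cervical and inguinal lymph nodes. Each genotype was 1 mouse: a WT mouse carrying *Foxp3Cre*, and a *Foxp3-Cre Tet2/3 fl/fl* mouse with advanced disease, termed DKO-severe. Both mice expressed Cre from *Foxp3*. The deletion was thus directed at cells that express *Foxp3*, or have done so, and not at all T cells. The authors describe this Cre as leaky, at low and random levels during blood cell development. Deletion in other cells was not examined here. Cells of the WT mouse carried Hashtag 1 and cells of the DKO-severe mouse Hashtag 2, and both shared 1 mRNA library and 1 hashtag library. With 1 mouse per genotype, every interval below covers counting error only, and genotype cannot be told apart from any other difference between the 2 mice.

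FOXP3 is the transcription factor that defines regulatory T (Treg) cells, which restrain other T cells. TET2 and TET3 oxidise 5-methylcytosine in DNA, a step towards removal of the methyl group, and Treg cells rely on that step to keep *Foxp3* switched on. A former Treg cell that has lost FOXP3 is called an ex-Treg cell, and it can take on features of T follicular helper (Tfh) cells, which help B cells make antibody. None of the 7 is a textbook T cell gene. *Dscam* encodes a cell adhesion molecule of neurons and *Hapln1* a link protein that ties hyaluronan to proteoglycans in cartilage. *Ank3* encodes ankyrin-G, which anchors membrane proteins to the spectrin skeleton. *Frmd5* encodes a FERM domain protein of the cell cortex, and *Nav2* a neuron navigator protein. *Cep112* encodes a centrosomal protein and *Hormad2* a HORMA domain protein of the meiotic chromosome axis.

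The 7 genes lie on 6 chromosomes, and most are long. In GRCm38 coordinates, *Dscam* (ENSMUSG00000050272) is on the minus strand at chr16:96590840-97170752 and *Hapln1* (ENSMUSG00000021613) on the plus strand at chr13:89539796-89611652. *Ank3* (ENSMUSG00000069601) is at chr10:69398773-70027438 on the plus strand and *Frmd5* (ENSMUSG00000027238) at chr2:121545529-121807087 on the minus strand. *Nav2* (ENSMUSG00000052512) is at chr7:48908716-49610090 and *Cep112* (ENSMUSG00000020728) at chr11:108425192-108860615, both on the plus strand. *Hormad2* (ENSMUSG00000020419) is on the minus strand at chr11:4345814-4441105. Their spans run from 71.9 kb for *Hapln1* to 701 kb for *Nav2*, beside a median of 12.3 kb over 32158 annotated genes. Between 87.5% and 99.6% of genes are shorter. *Dscam* overlaps 3 annotated genes on the opposite strand, *Cep112* overlaps 2 and *Nav2* overlaps 4.

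CpG dinucleotides, on which DNA methylation acts, differed widely in number between the promoters. Promoter sequence was found in RefSeq for 6 of the 7 genes, with 9 start sites in all, and not for *Ank3*. The 250 bases upstream of the RefSeq start (GRCm38) are shown for the pair of genes with the closest co-detection, *Hapln1* (chr13:89540386-89540635, plus strand) and *Hormad2* (chr11:4441083-4441332, minus strand), and for another linked pair with more CpGs, *Dscam* (chr16:97170736-97170985, minus strand) and *Frmd5* (chr2:121807058-121807307, minus strand). Each is written 5′ to 3′ on the strand of the gene, with CpG dinucleotides in capitals.
Hapln1: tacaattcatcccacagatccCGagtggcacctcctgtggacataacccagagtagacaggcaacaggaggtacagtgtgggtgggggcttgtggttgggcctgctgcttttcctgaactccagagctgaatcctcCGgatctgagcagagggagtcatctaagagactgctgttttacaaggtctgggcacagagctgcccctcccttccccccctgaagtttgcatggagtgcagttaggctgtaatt
Hormad2: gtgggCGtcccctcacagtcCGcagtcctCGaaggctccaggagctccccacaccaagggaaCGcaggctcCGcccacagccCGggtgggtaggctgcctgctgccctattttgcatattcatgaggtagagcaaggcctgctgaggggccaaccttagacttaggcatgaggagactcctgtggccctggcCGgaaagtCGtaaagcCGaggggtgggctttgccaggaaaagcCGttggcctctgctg
Dscam: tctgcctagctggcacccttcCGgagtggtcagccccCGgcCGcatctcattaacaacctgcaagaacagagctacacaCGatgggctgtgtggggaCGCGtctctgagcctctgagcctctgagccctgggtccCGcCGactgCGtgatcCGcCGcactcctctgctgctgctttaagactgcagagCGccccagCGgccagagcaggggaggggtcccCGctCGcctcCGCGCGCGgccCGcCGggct
Frmd5: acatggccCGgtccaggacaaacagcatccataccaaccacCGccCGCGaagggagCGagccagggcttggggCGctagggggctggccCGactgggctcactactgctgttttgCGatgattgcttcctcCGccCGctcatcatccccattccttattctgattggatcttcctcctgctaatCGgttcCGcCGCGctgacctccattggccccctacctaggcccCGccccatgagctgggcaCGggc
The *Hapln1* promoter holds 2 CpGs in 250 bases, and 18.8% of 32851 mouse promoters of the same length hold fewer. *Hormad2* holds 10 CpGs, with 62.2% of promoters holding fewer, and *Frmd5* holds 16, with 74.6% holding fewer. *Dscam* holds 21 CpGs, with 83.7% of promoters holding fewer. *Nav2* has a start with 7 CpGs and a start with 36, and *Cep112* has a start with 18 and a pair of starts with 2. The median over all promoters was 6. On either strand, 0 of the 9 start sites held the forkhead motif GTAAACA, which 3.17% of all promoters held, or the STAT motif TTCNNNGAA, which 7.02% held. This says only that those letters are not in these windows.

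Cells were sorted in silico by their transcripts. A Cd4-gated cell held a UMI (1 captured molecule) of *Cd3d*, *Cd3e* or *Cd3g* and of *Cd4*, and none of *Cd8a* or *Cd8b1*. Cd8-gated cells held a Cd3 and a *Cd8a* or *Cd8b1* UMI and no *Cd4* UMI, and B-gated cells held *Cd79a* with a further B cell marker and no Cd3 UMI. Foxp3-positive cells held 1 or more *Foxp3* UMIs. Filtering left 6573 WT and 6345 DKO-severe cells, with medians of 5605 and 8068 UMIs. No barcode was shared between the genotypes. *Tet2* was at 51.9 CPM (UMIs scaled to a common total) in WT and 71.0 CPM in DKO-severe Cd4-gated cells and *Tet3* at 115 and 98.2 CPM, but 3′ counts may come from outside the deleted exons and check nothing. The DKO-severe Foxp3-positive Cd4-gated cells numbered 329 and held a median of 11545 UMIs, against 63 cells and 5288 UMIs in WT. Because depth differed, shares of cells with a UMI are given after each cell was thinned at random to 3800 UMIs and gated again, which left 91 and 28 Foxp3-positive cells.

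In Foxp3-positive Cd4-gated cells all 7 genes were higher in DKO-severe than in WT. Summed UMIs gave a median log2 ratio of 2.58 over the 7 genes, beside a median of 0.03 over 10698 genes, and 5 of the 7 were at least 4-fold higher, beside 1.81% of all genes counted. All 7 passed the minimum of 20 UMIs over both sides. The 7 were chosen on this contrast, so nothing is read from that count. The WT side rests on 63 cells and between 1 and 40 UMIs per gene. Fewer cells and lower levels per cell cannot be told apart for the rarest of these genes.

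The adhesion and matrix genes, *Dscam* and *Hapln1*, are described first. *Dscam* summed to 40 UMIs (89.0 CPM) in WT and 743 UMIs (156 CPM) in DKO-severe Foxp3-positive cells, a log2 ratio of 0.81 (95% interval 0.35 to 1.30). Of the 40 WT UMIs, 23 came from 1 cell, or 57.5%. At 3800 UMIs per cell, *Dscam* was found in 13 of 91 DKO-severe Foxp3-positive cells (14.3%, 7.83 to 23.2) and 0 of 28 WT cells, a count allowing up to 10.7%. Before thinning 5 of 63 WT cells held *Dscam*, and the ratio of summed UMIs was the lowest of the 7.

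*Hapln1* had the highest ratio of the 7. It was counted at 1 UMI (2.23 CPM) in WT and 588 UMIs (123 CPM) in DKO-severe Foxp3-positive cells, a log2 ratio as counted of 5.79 (3.31 to 11.1). At 3800 UMIs per cell it was found in 9 of 91 DKO-severe cells (9.89%) and 0 of 28 WT cells. Positive DKO-severe cells held a mean of 6.84 UMIs before thinning and up to 42, so the signal was more than stray single UMIs.

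The membrane and skeleton genes differed in how far WT cells already held them. *Ank3* was at 6 UMIs (13.4 CPM) in WT and 707 UMIs (148 CPM) in DKO-severe Foxp3-positive cells, a log2 ratio of 3.47 (2.34 to 4.92). *Frmd5* was at 11 UMIs (24.5 CPM) in WT, of which 10 were in 1 cell, and 557 UMIs (117 CPM) in the DKO-severe mouse, for a log2 ratio of 2.25 (1.40 to 3.26). *Nav2* was at 27 UMIs (60.1 CPM) in WT and 1714 UMIs (359 CPM) in the DKO-severe mouse, for a log2 ratio of 2.58 (2.03 to 3.18). *Nav2* was the most widely found of the 7, in 41 of 91 DKO-severe Foxp3-positive cells at 3800 UMIs (45.1%, 34.6 to 55.8) and 4 of 28 WT cells (14.3%, 4.03 to 32.7). *Ank3* was found in 18 of 91 (19.8%) and *Frmd5* in 9 of 91 (9.89%) DKO-severe cells, and neither in any of the 28 WT cells. *Frmd5* was unevenly spread, with 89 of its 557 DKO-severe UMIs in 1 cell.

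The centrosomal and meiotic genes differed in their WT level. *Cep112* was at 15 UMIs (33.4 CPM) in WT and 487 UMIs (102 CPM) in DKO-severe Foxp3-positive cells, a log2 ratio of 1.61 (0.87 to 2.46). It was found in 20 of 91 DKO-severe cells (22.0%, 14.0 to 31.9) and 4 of 28 WT cells (14.3%), and those intervals overlap. *Hormad2* was at 1 UMI (2.23 CPM) in WT and 320 UMIs (67.0 CPM) in the DKO-severe mouse, for a log2 ratio as counted of 4.91 (2.42 to 10.2). It was found in 7 of 91 DKO-severe cells (7.69%) and 0 of 28 WT cells. *Foxp3* itself, which defines the gate, had a log2 ratio of -0.79 (-1.12 to -0.46), between 203 CPM for WT and 117 CPM for DKO-severe. Counted per cell of the gate, it was at a mean of 1.44 UMIs in WT and 1.70 UMIs in the deeper DKO-severe cells.

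**Figure D1:**
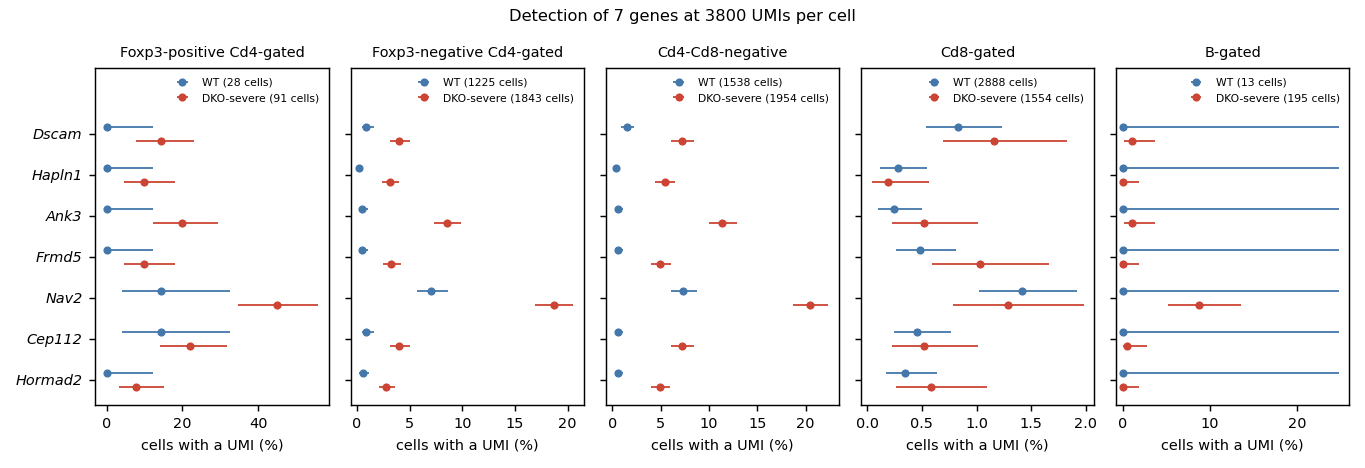
Share of cells with 1 or more UMI of each of the 7 genes (x axis, percent, scale differs by panel) at 3800 UMIs per cell, by gate and genotype, with exact 95% binomial intervals that cover counting error only. DKO-severe points lie to the right of WT in both Cd4 gates and in Cd4-Cd8-negative cells, while Cd8-gated shares reach at most 1.42%.

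Detection was not limited to cells with a *Foxp3* UMI. Among Foxp3-negative Cd4-gated cells (1668 WT and 2405 DKO-severe) the median log2 ratio over the 7 genes was 2.43, beside 0.14 over 14118 genes, and 6 of the 7 were at least 4-fold higher, beside 9.29% of all genes counted. *Hapln1* had the highest ratio, from 7 UMIs (0.72 CPM) in WT to 532 UMIs (22.9 CPM) in the DKO-severe mouse, for a log2 ratio of 4.99 (3.94 to 6.32). *Ank3* followed with 27 and 1466 UMIs and a log2 ratio of 4.51 (3.96 to 5.12), and *Hormad2* with 12 and 404 UMIs and 3.82. *Cep112* had 38 and 487 UMIs (log2 ratio 2.43), *Frmd5* 40 and 441 (2.21) and *Nav2* 336 and 3493 (2.12). *Dscam* missed the 4-fold line with 91 and 853 UMIs, a log2 ratio of 1.97 (1.66 to 2.30), and stood just outside it as *Nav2* stood just inside.

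At equal depth the order of detection in DKO-severe Foxp3-negative cells was led by *Nav2*, found in 344 of 1843 cells (18.7%). *Nav2* was also in 86 of 1225 WT Foxp3-negative cells (7.02%), so for this gene the word ectopic does not describe WT CD4+ cells. *Ank3* was found in 157 of 1843 DKO-severe cells (8.52%) and 0.490% of WT cells. *Dscam* and *Cep112* were each found in 74 of 1843 cells (4.02%) and 0.898% of WT cells. *Frmd5* (3.26% and 0.490%), *Hapln1* (3.09% and 0.163%) and *Hormad2* (2.77% and 0.571%) formed a group whose DKO-severe intervals overlap. These intervals also overlap those of *Dscam* and *Cep112*. Apart from *Nav2*, the WT shares had intervals that overlap those of the same genes in Cd8-gated WT cells (0.242% for *Ank3* to 0.831% for *Dscam*). Whether these WT shares are background was not tested. Before thinning, summed CPM of each of these genes was higher in WT Foxp3-negative than in WT Cd8-gated cells, by little for *Hormad2* and *Hapln1*. *Dscam* was at 9.36 against 3.80 CPM, *Frmd5* at 4.11 against 1.42, *Cep112* at 3.91 against 1.00 and *Ank3* at 2.78 against 0.85. *Hormad2* was at 1.23 against 0.95 CPM (12 and 20 UMIs) and *Hapln1* at 0.72 against 0.66 (7 and 14 UMIs). Of the WT Foxp3-negative UMIs, 37 of 91 for *Dscam*, 15 of 40 for *Frmd5* and 11 of 27 for *Ank3* were in 1 cell.

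Cd8-gated cells, which should lack Cre expressed from *Foxp3* unless it is leaky, gave a comparison level for each gene. The median log2 ratio over the 7 genes was 0.32, and 0 of the 7 were at least 4-fold higher, beside 1.77% of 13415 genes. *Hapln1* had 14 WT and 10 DKO-severe UMIs, *Cep112* 21 and 17, *Hormad2* 20 and 16, and *Nav2* 114 and 111. The intervals of those 4 ratios span 0. *Dscam* (80 and 111 UMIs, log2 ratio 0.83, 0.41 to 1.27), *Ank3* (18 and 49, 1.81, 1.00 to 2.67) and *Frmd5* (30 and 84, 1.85, 1.23 to 2.50) were higher in DKO-severe. For *Frmd5*, 38 of the 84 DKO-severe UMIs were in 1 cell. At 3800 UMIs, shares of DKO-severe Cd8-gated cells ran from 0.193% for *Hapln1* to 1.29% for *Nav2*, with median depths before thinning of 9384 UMIs in DKO-severe and 6345 in WT.

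In the 195 thinned B-gated cells of the DKO-severe mouse, *Hapln1*, *Frmd5* and *Hormad2* were found in 0 cells, a count allowing up to 1.54%. *Cep112* was in 1 cell and *Dscam* and *Ank3* in 2 each. *Nav2* was the exception, in 17 of 195 B-gated cells (8.72%, 5.16 to 13.6), above its share in Cd8-gated cells. In WT, 13 thinned B-gated cells held none of the 7 genes, allowing up to 23.1%. Cells with a Cd3 UMI but neither *Cd4* nor Cd8 UMIs resembled the Cd4 gates. In DKO-severe, 1954 such thinned cells held *Nav2* in 20.5%, *Ank3* in 11.4% and *Hormad2* in 4.91%, beside 7.35%, 0.585% and 0.585% of 1538 WT cells. Of these DKO-severe cells 143 (7.32%) held 3 or more of the 7 genes, and 0 of the WT cells did, a count allowing up to 0.195%.

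Co-detection with *Foxp3* was then taken within the DKO-severe mouse, where both groups shared 1 animal and 1 library. Summed CPM of all 7 genes was higher in Foxp3-positive than in Foxp3-negative Cd4-gated cells, with a median log2 ratio of 2.08, and 4 of the 7 were at least 4-fold higher, beside 0.682% of 13790 genes. None of the 7 was at least 4-fold lower, beside 1.15%. *Frmd5* had a log2 ratio of 2.62 (2.43 to 2.80), *Hapln1* 2.42 (2.25 to 2.60), *Cep112* 2.28 (2.10 to 2.46) and *Dscam* 2.08 (1.94 to 2.22). *Hormad2* stood just below with 1.94 (1.73 to 2.16). *Nav2* (1.25, 1.17 to 1.34) and *Ank3* (1.23, 1.10 to 1.36) were the 2 lowest and were the genes most widely found without *Foxp3*. Foxp3-positive cells were also deeper, with a median of 11545 against 7975 UMIs, and at equal depth the share of cells was still higher for all 7 genes, as with 45.1% against 18.7% for *Nav2* and 7.69% against 2.77% for *Hormad2*.

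Read the other way, the share of cells with a *Foxp3* UMI at 3800 UMIs was higher among cells with each gene than among cells without it. Of 94 *Cep112*-positive DKO-severe Cd4-gated cells, 20 held *Foxp3* (21.3%), against 3.86% of *Cep112*-negative cells. Of 87 *Dscam*-positive cells 13 held *Foxp3* (14.9% against 4.22%), and of 66 *Hapln1*-positive cells 9 did (13.6% against 4.39%). The shares were 13.0% against 4.40% for *Frmd5*, 12.1% against 4.48% for *Hormad2*, 10.6% against 3.23% for *Nav2* and 10.3% against 4.15% for *Ank3*. Most cells with any of the 7 genes therefore had no *Foxp3* UMI at this depth. *Foxp3* is a sparse transcript in these data, with a median of 1 UMI per positive cell in both mice, so a cell without a UMI is not shown to lack it.

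In summed UMIs before thinning, WT cells leaned the same way in few cells. Between Foxp3-positive and Foxp3-negative WT Cd4-gated cells, the log2 ratio was 3.25 (2.68 to 3.80) for *Dscam*, 3.09 (2.13 to 3.99) for *Cep112*, 2.57 (1.46 to 3.56) for *Frmd5* and 2.27 (0.70 to 3.57) for *Ank3*. Those values rest on 40, 15, 11 and 6 UMIs in 63 cells, and between 40.0% and 90.9% of each came from 1 cell. *Nav2* was at 0.80 (0.18 to 1.37). *Hapln1* and *Hormad2* had 1 UMI each in WT Foxp3-positive cells, and their ratios as counted, 1.63 (-3.87 to 4.59) and 0.85 (-4.57 to 3.61), span 0 and rest on 8 and 13 UMIs in all, under the minimum of 20 used for counts of genes.

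The genes were found together in single cells. At 3800 UMIs, 17 of 91 DKO-severe Foxp3-positive Cd4-gated cells (18.7%, 11.3 to 28.2) held 3 or more of the 7, and 61 of 1843 Foxp3-negative cells (3.31%, 2.54 to 4.23) did. Without thinning these were 139 of 329 (42.2%) and 182 of 2405 (7.57%). No WT Cd4-gated cell of 1253 held 3 or more, a count allowing up to 0.239%, and without thinning 4 of 1731 did. Over 20 further random thinnings the WT share had a median of 0.0801% and a highest value of 0.161%. In Cd8-gated cells 1 of 1554 DKO-severe and 1 of 2888 WT cells held 3 or more, and no B-gated cell did. Of the 78 DKO-severe Cd4-gated cells with 3 or more, 17 (21.8%, 13.2 to 32.6) held *Foxp3*, against 74 of 1856 cells (3.99%) with fewer. Over the same 20 thinnings the Foxp3-positive share ran from 11.6% to 23.2% and the Foxp3-negative share from 2.84% to 4.31%. Up to 6 of the 7 genes were found in 1 cell, and 31 of 91 Foxp3-positive cells (34.1%) held none.

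**Figure D2:**
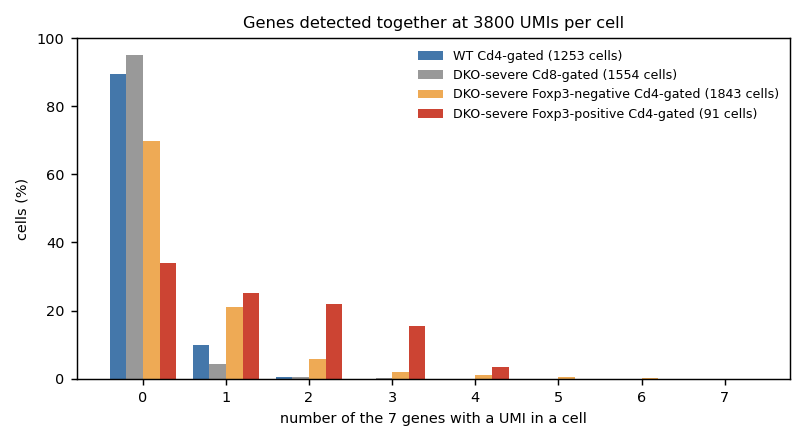
Share of cells (y axis, percent) by the number of the 7 genes with a UMI at 3800 UMIs per cell (x axis), for WT Cd4-gated, DKO-severe Cd8-gated and both DKO-severe Cd4 gates. WT Cd4-gated cells end at 2 genes and DKO-severe Cd8-gated cells at 3 (1 cell), while DKO-severe cells reach 4 genes in the Foxp3-positive and 6 in the Foxp3-negative gate.

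All 21 pairs were examined in the 1934 thinned DKO-severe Cd4-gated cells, which share 1 mouse, 1 library and equal depth. The share of cells with a gene among cells with another, over the share among cells without it, exceeded 1 in 40 of 42 ordered pairs, with a median of 3.74. The closest pair was *Hapln1* and *Hormad2*, found together in 20 cells: 30.3% of *Hapln1*-positive cells held *Hormad2* against 2.03% of the rest, with a phi coefficient (the correlation of detection) of 0.30. *Hapln1* and *Ank3* followed with phi 0.26 and 32 cells in common, then *Dscam* and *Nav2* with 0.22 and 53 cells. *Cep112* with *Ank3* and *Dscam* with *Ank3* each had phi 0.21. *Frmd5* stood apart, with *Dscam* (0.17) as its closest partner and no excess with *Hormad2* (2 cells in common, lowest share ratio 0.965). The median phi over the 21 pairs was 0.14.

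**Figure D3:**
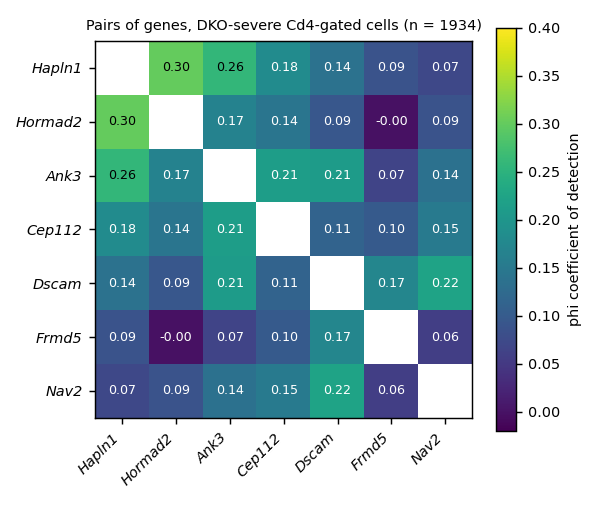
Phi coefficient of detection for each pair of the 7 genes over 1934 DKO-severe Cd4-gated cells at 3800 UMIs per cell (color scale and numbers). The brightest cell is *Hapln1* with *Hormad2* (0.30) and the darkest *Frmd5* with *Hormad2* (0.00).

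Genes outside the 7 that were most often found in the same cells included receptors of activated and regulatory T cells. For each gene the 3 genes with the highest phi were taken among genes found in 2% or more of those 1934 cells. *Dscam* was led by *Itgae* (phi 0.36), the integrin CD103, found in 36.8% of *Dscam*-positive and 2.44% of *Dscam*-negative cells. *Tnfrsf9*, the co-stimulatory receptor 4-1BB, came second for *Dscam* (0.28) and was among the 3 for *Hapln1* (0.20) and *Ank3* (0.22). *Cobl*, an actin nucleator, was among the 3 for *Dscam* (0.26), *Hapln1* (0.24), *Ank3* (0.22) and *Frmd5* (0.16). *Cd74*, the invariant chain of MHC class II, was among the 3 for *Hapln1* (0.21) and led for *Hormad2* (0.20), which also had the MHC class II gene *H2-Ab1* (0.17). *Ank3* was led by the lymphatic growth factor gene *Vegfc* (0.23), *Nav2* by the phospholipase gene *Plcb4* (0.27) and *Cep112* by the ubiquitin ligase gene *Hecw2* (0.24). *Nav2* also had *Ikzf2* (0.18), the Treg-associated factor Helios.

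The 78 cells with 3 or more of the 7 genes were set against the 1319 DKO-severe Cd4-gated cells with none, at equal depth. Of the 15 Treg genes 13 were found in a larger share of the 78 cells, with a median difference of 19.1 percentage points. Of all 17935 detected genes 7396 were in a larger share. That background is held down by 6144 genes found in none of the 78 cells, which could not be in a larger share. *Ikzf2* was in 77 of 78 cells (98.7%) against 660 of 1319. *Tnfrsf4* (OX40) was in 93.6% against 49.4%, *Tnfrsf18* (GITR) in 80.8% against 45.9%, and *Itgae* in 20.5% against 1.44%. *Ikzf4* was in 23.1% against 2.88%, *Il2ra* in 33.3% against 11.7% and *Ctla4* in 73.1% against 54.0%. *Nrp1* (30.8% against 38.8%) and *Il10* (1.28% against 2.35%) were the 2 Treg genes in a smaller share. In the 61 of these cells without a *Foxp3* UMI, 12 of the other 14 Treg genes were in a larger share than in the 1288 Foxp3-negative cells with none of the 7, with a median difference of 18.9 points. *Ikzf2* was in 98.4% and *Tnfrsf4* in 91.8% of those 61 cells, and both were in all 17 of the cells with a *Foxp3* UMI. Of the markers for the label Treg-like, these 2 were thus frequent in cells with and without a *Foxp3* UMI. They were not particular to cells with the 7 genes. In the 31 Foxp3-positive cells with none of the 7, *Ikzf2* was in 83.9% and *Tnfrsf4* in 61.3%. The 7 genes were proposed as genes of Treg-like cells, so these shares describe that choice.

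Tfh genes differed less. Of 12 Tfh genes 8 were in a larger share of cells with 3 or more of the 7, with a median difference of 2.40 points. Of all 17935 detected genes 7396 were, and 6144 were in none of the 78 cells. *Batf* was in 47.4% against 31.8% and *Pdcd1* (PD-1) in 34 of 78 against 330 of 1319, while *Bcl6* (28.2% against 24.2%) and *Cxcr5* (10.3% against 9.48%) were close. *Il21*, the cytokine of Tfh cells, was in 3 of 78 cells (3.85%) against 23.2%. Of 8 naive-state genes 5 were in a smaller share, among them *Ccr7* (5.13% against 17.7%) and *Klf2* (25.6% against 60.1%). Of all 17935 detected genes 9783 were in a smaller share, a count that includes genes found in none of the 78 cells. *Il7r* (65.4% against 45.4%) and *Satb1* (42.3% against 37.0%) were in a larger share.

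Other genes proposed as ectopic in this mouse were compared in the same cells. *Cntn5*, *Ntng1*, *Ralyl* and *Epha3*, neuronal genes, were each in a smaller share of the 78 cells than of the 1319, with *Cntn5* in 10.3% against 32.9% and *Ralyl* in 29.5% against 60.1%. By *Foxp3*, *Ralyl* was in 20 of 61 against 791 of 1288 Foxp3-negative cells (32.8% against 61.4%). In Foxp3-positive cells it was in 3 of 17 against 2 of 31 (17.6% against 6.45%), so its smaller share was not seen there. *Mal*, *Myl1* and *Kcnh5* were in 0 of 78 cells, a count allowing up to 3.85%, against 3.64%, 2.35% and 3.41%, so for them no difference was detectable at this depth. *Dpp10*, listed with them, was in 1.28% against 0.607%. By single gene, *Ank3*-positive cells held *Cntn5* in 31.4% against 29.9% of *Ank3*-negative cells and *Ralyl* in 60.0% against 58.6%, so the smaller shares did not extend to each of the 7. *Penk*, the enkephalin precursor, was the opposite case with 67 of 78 cells (85.9%) against 24.3%, the largest difference of the genes ranked. After *Penk* came *Tnfrsf9* (69.2% against 14.0%), *Cd74* (61.5% against 8.64%), *Ikzf2*, *Plcb4* (64.1% against 16.5%) and *Osbpl3* (56.4% against 10.7%). *Nrn1*, *Sntb1*, *Tnfrsf4* and *Cd81* completed the 10 largest. The 5 lowest were *Gm2682* (26.9% against 76.0%), *Themis* (5 of 78 against 659 of 1319), *Klf2*, *Ralyl* and *Nop10*.

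**Figure D4:**
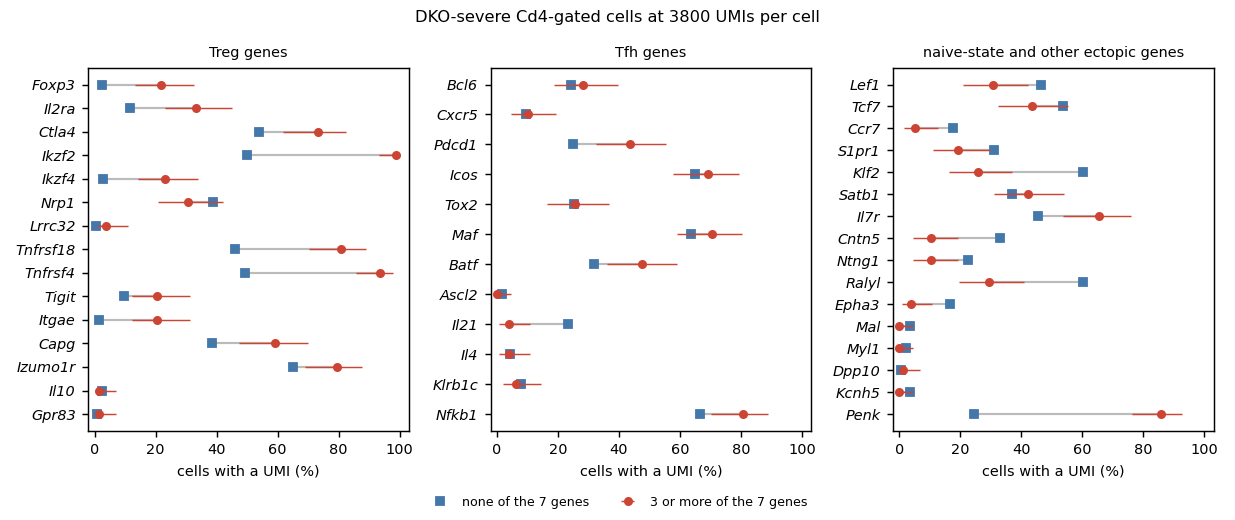
Share of DKO-severe Cd4-gated cells with a UMI (x axis, percent) at 3800 UMIs per cell, for 78 cells with 3 or more of the 7 genes (circles, with exact 95% binomial intervals) and 1319 cells with none (squares). Most Treg genes and *Penk* lie to the right for the circles, and *Il21*, *Klf2* and the *Cntn5* group to the left.

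Markers of other cell types were examined in the same 78 and 1319 cells. A B, monocyte or granulocyte marker was found in 48.7% of the 78 cells and 38.1% of the 1319. Of the B cell markers, *Cd79a*, *Cd79b* and *Ms4a1* were in 0 of 78 cells, while *Ebf1* was in 23.1% against 7.05% and *Pax5* in 3.85% against 2.73%, and these 5 markers summed to 51.3 against 25.7 UMIs per 100 cells. *Igkc*, an immunoglobulin light chain gene named after its values were seen, was in 79.5% against 23.1%. Granulocyte markers summed to 133 against 405 UMIs per 100 cells and monocyte and macrophage markers to 23.1 against 44.0. Dendritic cell markers were at 0 of 78 but for *Zbtb46* (15.4% against 1.14%), and neuron markers at 0 of 78 but for *Map2* (34.6% against 13.5%) and *Syt1* (1 cell). All 6 chondrocyte markers were at 0 of 78. The plasma cell, natural killer, endothelial, stromal and erythroid lists summed to between 3.85 and 83.3 UMIs per 100 of the 78 cells and between 0.986 and 80.7 per 100 of the 1319. The 78 cells were deeper before thinning, with a median of 10515 against 7532 UMIs, and had similar doublet scores (0.037 and 0.036). Between the genotypes, 5 of 5 granulocyte markers counted in the Foxp3-positive gate and 4 of 6 erythroid markers were at least 4-fold higher in DKO-severe, beside 1.81% of all genes. Without cells holding markers of other lineages the median log2 ratio over the 7 genes was 2.13 in the Foxp3-positive and 3.00 in the Foxp3-negative gate.

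Relatives of the 7 genes were then counted. In Foxp3-positive cells no relative was at least 4-fold higher or lower in DKO-severe, over 3 counted *Dscam* relatives, 3 hyaluronan genes, 5 ankyrin and spectrin genes, 10 FERM domain genes, 1 neuron navigator gene, 26 centrosomal genes and 5 meiotic genes. With 63 WT cells, genes at 0 there could not reach 4-fold unless they were abundant in DKO-severe. In Foxp3-negative cells some relatives were at least 4-fold higher, as were 9.29% of all 14118 genes counted, where the median log2 ratio was 0.14. Of 4 counted *Dscam* relatives 3 were (list median 3.41), led by *Cntn4* with 5 and 532 UMIs and a log2 ratio of 5.48. Of 3 counted hyaluronan genes 2 were (list median 2.20), the hyaluronan-binding proteoglycan gene *Vcan* with 4 and 195 UMIs (4.35) and the hyaluronan receptor gene *Hmmr* with 46 and 503 UMIs (2.20). *Ank1* (2.27), *Sptbn4* and *Sptb* were the 3 of 6 ankyrin and spectrin genes (list median 1.04). *Epb41l5* (4.48) and *Frmd4a* (2.75) were 2 of 12 FERM domain genes, while *Epb41l1* was at least 4-fold lower (-2.25). Of 29 centrosomal genes only the cytokinesis gene *Cep55* (2.18) was past 4-fold, of 7 meiotic genes none was, and *Nav1*, the counted navigator relative, was at 1.02.

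The flanking genes were also read. Of the 14 nearest genes on either side of the 7, 11 had enough UMIs in Cd4-gated cells and 5 were at least 4-fold higher in DKO-severe, beside 9.60% of all genes in that comparison. They were *E2f8* beside *Nav2* (log2 ratio 2.47), *Bace2* beside *Dscam* (8 and 404 UMIs), *Edil3* (4.51) and *Vcan* (4.48) on the 2 sides of *Hapln1*, and *Lif*, the leukemia inhibitory factor gene beside *Hormad2*, which had 0 WT and 287 DKO-severe UMIs. Most of these 5 neighbours were found in too few thinned cells to show whether they share cells with the gene beside them. *Edil3* and *Vcan* were each in 1.52% of 66 *Hapln1*-positive and 1.12% of 1868 *Hapln1*-negative cells. *E2f8* was in 1.30% of 385 *Nav2*-positive and 0.839% of 1549 *Nav2*-negative cells. *Bace2* was in 6.90% of 87 *Dscam*-positive and 4.49% of 1847 *Dscam*-negative cells, and no interval was computed for these shares. *Lif* was in 13.8% of 58 *Hormad2*-positive cells against 1.81%. *Gm32509*, which overlaps *Dscam* on the opposite strand, was in 16.1% of *Dscam*-positive cells against 0.0541%, and reads of an overlapping pair may be counted for either gene.

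The T cell receptor gave a readout that the choice of genes did not use directly, although the genes were chosen in cells of this same mouse. A leading *Trbv* segment, the variable segment with the most UMIs, could be assigned to 161 of the DKO-severe Cd4-gated cells with 3 or more of the 7 genes before thinning. *Trbv12-2* led in 102 of them (63.4%, 55.4 to 70.8), against 25.8% of 465 cells with none and 25.7% of 358 cells with 1 or 2. In WT Cd4-gated cells it led in 34 of 415 (8.19%). *Trbv13-2* went the other way, with 9.94% of cells with 3 or more and 32.0% of cells with none. At 3800 UMIs for the genes, *Trbv12-2* led in 18 of 32 cells with 3 or more (56.3%, 37.7 to 73.6) and 26.0% of cells with none. The segment was thus more frequent in cells with several of the 7 genes than in Cd4-gated cells of the same mouse with fewer or none. Before thinning it also led in 71 of 154 DKO-severe Foxp3-positive Cd4-gated cells (46.1%, 38.1 to 54.3). That group includes cells with 3 or more of the genes. Among Foxp3-positive cells with none of the 7, it led in 3 of 13 (23.1%, 5.04 to 53.8). Whether cells that share it belong to 1 clone was not tested, and closely similar segments such as *Trbv12-1* and *Trbv12-2*, or copies of a *Trav* segment, may share reads.

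**Figure D5:**
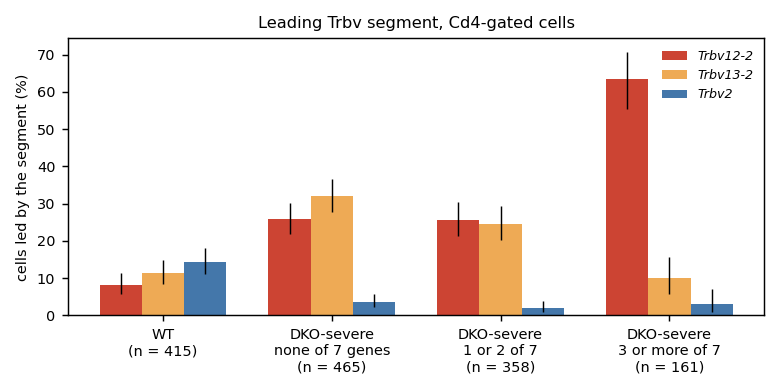
Share of Cd4-gated cells (y axis, percent) led by *Trbv12-2*, *Trbv13-2* or *Trbv2*, for WT and for DKO-severe cells with none, 1 or 2, or 3 or more of the 7 genes, counted without thinning, with exact 95% binomial intervals. *Trbv12-2* stands at 63.4% in cells with 3 or more and at 25.8% or below in the other groups.

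By gene, *Trbv12-2* led in 66.0% of 150 *Cep112*-positive, 65.1% of 106 *Hormad2*-positive and 60.4% of 106 *Hapln1*-positive DKO-severe cells with a leading segment. It led in 53.5% of *Ank3*-positive, 48.2% of *Frmd5*-positive, 37.0% of *Dscam*-positive and 34.5% of *Nav2*-positive cells. A cell with several of the genes is counted under each. Of 314 DKO-severe cells led by *Trbv12-2*, 102 (32.5%) held 3 or more of the 7 genes, against 16 of 253 cells (6.32%) led by *Trbv13-2* and 0 of 34 WT cells led by *Trbv12-2*. The depths of the DKO-severe groups were close, at medians of 10373 and 9532 UMIs, and *Foxp3* was found in 22.6% and 8.30% of them. These counts were made without thinning. The 34 WT cells were shallower, at a median of 5285 UMIs, and their count of 0 has an exact upper limit of 10.3%. The α chain was more spread: *Trav7-4* led most often, in 17 of 73 cells with 3 or more of the 7 genes and an assigned segment.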

How the data were processed

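TCRβ+ cells were profiled by 10x 3′ single-cell RNA sequencing. The deposited matrices, 1 per genotype, hold UMI counts from the Cell Ranger 7.1.0 pipeline of the authors on mm10, not normalized; whether introns were counted is not given in the sources used here. Barcodes needed 500 or more genes and no more than 10% mitochondrial UMIs. 3 WT barcodes with more of the other hashtag and the highest 6% of Scrublet scores (scanpy 1.11.5) per matrix were removed. This left 6573 of 7189 WT and 6345 of 7161 DKO-severe barcodes, with 750 to 105921 UMIs per DKO-severe and 760 to 55501 per WT cell. Genes were summed per gate and scaled to CPM. Log2 ratios were computed for genes with 20 or more UMIs over both sides, counting sums under 3 as 3 where lists were summarised, with exact 95% conditional binomial intervals. A gene at least 4-fold higher or lower was counted as such. Shares used cells thinned to 3800 UMIs, leaving out 694 WT (10.6%) and 477 DKO-severe (7.52%) cells, with exact binomial (Clopper-Pearson) intervals. Where a count of 0 is said to allow up to a share, that share is 3 divided by the number of cells. The exact interval reaches higher, as with 12.3% for 0 of 28 cells. No test was made, since each genotype was 1 mouse. The steps were tested on simulated data (numpy 2.4.6, scipy 1.17.1, pandas 2.3.3, Python 3.11.15). Named are the 7 genes, the fixed gene lists, the 3 genes of highest phi per gene and the 10 highest and 5 lowest differences in share. The 7 genes and all lists were chosen with earlier results of these data known, and the further thinnings, flanking genes, gene lengths and *Igkc* were added after seeing the data. RefSeq promoters are from GRCm38.p6. Some genes of the lists are not reported here.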

Additional observations from a re-analysis of the deposited data

How the results depend on the processing

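Of 136 alternative values of 11 results, 104 stayed near the value reported, 32 moved and 0 reversed. The cause was not tested. Near meant within the reported interval or, for the pair share ratio and the background of 4-fold differences, within a fixed factor. A reversal was called only for log2 ratios whose interval excluded 0. The Cd8-gated median, whose interval spans 0, went from 0.32 to -0.03 without cells of other lineages. Some values could not change, such as the Cd8-gated median with 2 or more *Foxp3* UMIs required. Without doublet removal the median log2 ratio was 0.96 in Cd8-gated cells and 1.83 between Foxp3-positive and Foxp3-negative DKO-severe cells. The latter was 2.29 with 12% of doublet scores removed, 2.48 with 2 or more *Foxp3* UMIs required, 2.52 without cells of other lineages and 2.54 as a mean over cells. Leaving out the cell with the most UMIs of each gene gave 3.47 for DKO-severe over WT in Foxp3-positive cells. In Foxp3-negative cells that ratio was 3.00 without cells of other lineages and 1.85 with 5 CPM added. The share of Foxp3-positive cells with 3 or more genes was 38.9% with 2 or more *Foxp3* UMIs, 29.3% at 6000 UMIs, 42.2% without thinning, 40.7% for 2 or more genes and 3.30% for 4 or more. Leaving out each of the 7 genes in turn gave 6.59% to 15.4%, lowest without *Nav2*. The Foxp3-negative share was 4.71% without a required *Cd4* UMI, 4.36% with another random draw, 2.22% at 2500 and 5.87% at 6000 UMIs, 7.57% without thinning, 8.95% for 2 or more genes, 1.47% for 4 or more and 1.90% to 2.98% leaving out each gene, lowest without *Ank3* or *Nav2*. The WT share was 0.479% for 2 or more genes. Leaving out a gene can only lower a count of 3 or more, so the WT share of 0% was bound to stay. The share of cells with 3 or more genes that held *Foxp3* was 10.3% with 2 or more *Foxp3* UMIs, 11.8% with another draw, 43.3% without thinning, 10.0% for 4 or more genes and 14.6% to 22.2% leaving out each gene. Shares depend on depth because both *Foxp3* and the 7 genes are sparse, and 28 thinned WT Foxp3-positive cells limit every WT value in that gate. No paired analysis was possible because each genotype was 1 mouse.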

Other observations

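Genes over 200 kb were more often at least 4-fold higher in DKO-severe in each gate read. They were more often at least 4-fold lower in both Cd4 gates, with no clear excess in Cd8-gated cells. This is a description across genes, which are not independent. In Foxp3-negative Cd4-gated cells 171 of 666 counted genes over 200 kb (25.7%) were at least 4-fold higher, against 367 of 3874 under 10 kb, 426 of 6486 from 10 to 50 kb and 337 of 3067 from 50 to 200 kb. In Foxp3-positive cells the share was 7.74% of 491 genes against 0.955% to 2.29%, and in Cd8-gated cells 4.91% of 570 genes against 1.23% to 2.21%. At least 4-fold lower were 3.45% of these long genes in Foxp3-negative cells against 1.53% to 2.09%, 4.07% in Foxp3-positive cells against 0.554% to 1.58%, and 0.702% in Cd8-gated cells against 0.674% to 0.700%. Of the 7 genes, *Dscam*, *Ank3*, *Frmd5*, *Nav2* and *Cep112* are over 200 kb, and *Hapln1* and *Hormad2* are not.

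Among cells outside the gates, 1 of 88 DKO-severe cells with both *Cd4* and Cd8 UMIs (1.14%) and 2 of 143 cells with no Cd3 UMI that were not B-gated (1.40%) held 3 or more of the 7 genes. In WT these were 0 of 171, a count allowing up to 1.75%, and 0 of 16, allowing up to 18.8%.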
